A study of Mus musculus with 9 samples.

Results

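Gene expression was compared between mouse salivary gland cancer stem cells kept for 24 h with ICG-001 and the same kind of cells kept for 24 h with the solvent DMSO. The 6 arrays were taken by their titles from the 9 of the series, with 3 arrays a group. The other 3 arrays, of cells given the Wnt inhibitor LF3 for 24 h, entered the fit to estimate the spread and served as a second reference. All groups share the C57BL/6 strain, the cell type and the time of harvest. The cells were isolated by the submitters and grown in a medium with serum replacement, and total RNA was hybridised to single-colour Illumina bead arrays. The labels give neither the dose of ICG-001 nor the tumour model, and do not say whether the 3 arrays of a group came from separate cultures, so p-values measure only how far these arrays spread, which may be technical error.

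ICG-001 is a small molecule known to bind the coactivator CBP and to block its contact with β-catenin. CBP and its relative p300 are acetyltransferases that many transcription factors recruit, among them the TCF/LEF factors through β-catenin, CREB, ATF factors, NF-κB, p53 and HIF. In the salivary gland, Wnt/β-catenin signalling acts on progenitor cells, and its activity has been linked to gland tumours.

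Of 16593 genes with a named probe, 7354 were detected on enough arrays to be tested. The difference between ICG-001 and DMSO passed limma's test (adjusted p under 0.05) for 2763 of them (37.6%), of which 1372 were higher with ICG-001 (18.7%) and 1391 were lower (18.9%). An unadjusted p under 0.05 was reached by 3421 genes. Counts of genes that rose or fell in a list below are to be set against the shares of 18.7% and 18.9%. The change was at least 2-fold for 383 genes (5.21%), 189 higher (2.57%) and 194 lower (2.64%). The 3 ICG-001 arrays all stood above the 3 DMSO arrays for 1892 genes (25.7%) and all below them for 1837 (25.0%). With median scaling in place of quantile normalization the calls were 832 higher and 1554 lower, so directions are given below for lists that kept their majority under that setting unless said otherwise. Only lists with at least 5 measured genes were checked in this way. The totals of transcription factor, secreted and surface genes and the smaller lists were not. The genes of the interferon response, mitosis and sterol synthesis, 156 measured of 228 on the array, are set aside here, which leaves 7198 genes with 1332 higher, 1333 lower, 161 at least 2-fold higher and 181 at least 2-fold lower.

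Mean signal per array was 368.3 to 467.3, and 10156 to 10897 of 25697 probes were detected (detection p under 0.01). Normalized values correlated across probes at 0.9876 to 0.9942 within a group and at 0.9612 to 0.9656 between the groups. The first DMSO array had the largest residual SD, 0.191 against 0.124 to 0.151 for the other 5. For some genes it stood nearer to the ICG-001 arrays than the other DMSO arrays did, and this is pointed out below for some of them only. Ly6c1 (5.65 against 6.30 and 6.43) and Col1a1 (5.41 against 6.32 and 5.92) are examples without such a remark. Each level is a normalized intensity on the log2 scale, with group means written as mean ± SD (n = 3), and a difference is ICG-001 minus DMSO on that scale. The levels of different genes come from different probes and are not compared with each other.

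The largest rises, ranked by the fitted difference, belonged to genes of quite different roles. Cdsn, which encodes the cornified cell adhesion protein corneodesmosin, stood at 7.47, 7.03 and 7.02 on the DMSO arrays and at 10.97, 10.78 and 10.81 on the ICG-001 arrays. The groups lay far apart, and Cdsn was 12.8-fold higher (7.17 ± 0.26 against 10.85 ± 0.10, limma adjusted p = 5.9e-09). Cox6a2, the muscle form of a cytochrome c oxidase subunit, read 5.59, 5.42 and 5.30 in DMSO, where 2 of 3 arrays detected it, and 8.67, 8.69 and 8.66 with ICG-001 (difference 3.24, limma adjusted p = 1.59e-08). Ccl4, a chemokine that draws monocytes and lymphocytes, was not well above background on any DMSO array, with readings of 4.38, 4.41 and 4.48. Its ICG-001 arrays read 8.31, 7.54 and 7.11, a rise of at least 5.32-fold (limma adjusted p = 2.24e-07). The bound sets the ICG-001 mean against the lowest detected signal of the DMSO arrays. Ccl4 was detected on no LF3 array either, so it passed the detection filter (at least 3 of the 9 arrays) only through the ICG-001 arrays. Its call and p-value are partly fixed by that filter. The same holds below for genes detected on no DMSO array or on no ICG-001 array, and on fewer than 3 LF3 arrays.

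Ppp1r15a encodes GADD34, the phosphatase subunit that reverses eIF2α phosphorylation, and it rose from 7.08, 7.00 and 6.89 to 9.59, 9.51 and 9.61 (5.96-fold, limma adjusted p = 4.25e-08). Lcn2, the iron-carrier-binding protein lipocalin 2, was 5.80-fold higher, at 9.73, 9.88 and 9.52 against 12.47, 12.35 and 11.93. Gadd45a, a stress-inducible growth arrest gene, rose by 2.38 (8.57 ± 0.30 against 10.94 ± 0.14). The other genes among the 10 largest rises were 1700012B09Rik (2.31), the transcription factor Klf2 (2.19), the activin subunit gene Inhba (2.18) and the kinesin adaptor gene Sybu (2.16, detected on 1 of 3 DMSO arrays). None of the 10 had overlapping groups, which the rule for naming them required.

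Selenbp1, which encodes a selenium-binding methanethiol oxidase, had the largest fall of all genes tested. It read 9.53, 9.89 and 9.41 in DMSO and 5.84, 5.43 and 5.66 with ICG-001, which is 15.7-fold lower (limma adjusted p = 1.59e-08). Its neighbour in sequence Selenbp2 was detected on no ICG-001 array (at least 1.36-fold lower), and the array may not tell the pair apart. Angpt2, a ligand of the endothelial receptor Tie2, fell from 7.74, 7.49 and 7.67 to 4.87, 4.93 and 4.89, at least 4.93-fold lower (limma adjusted p = 1.59e-08). Mrgprf, an orphan G protein-coupled receptor gene, was at least 4.30-fold lower (7.44 ± 0.24 against 4.55 ± 0.19), and the calcification inhibitor gene Mgp at least 3.10-fold lower (6.96 ± 0.34 against 4.47 ± 0.03).

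Car9, a carbonic anhydrase gene and a standard HIF target, varied more between arrays. It stood at 8.20, 8.93 and 8.74 in DMSO and at 6.79, 5.66 and 6.38 with ICG-001 (difference -2.35, limma adjusted p = 9.42e-05), and the lowest DMSO array was still above the highest ICG-001 array. Asb2, a substrate receptor of a ubiquitin ligase, fell by 2.33 (8.49 ± 0.11 against 6.16 ± 0.09). Ppl, the desmosomal linker periplakin, and Rab7b, a small GTPase of late endosomes, were at least 3.43-fold and 3.85-fold lower. A second and dimmer Ppl probe read 5.36 in DMSO and 5.48 with ICG-001 (difference 0.12, limma adjusted p = 0.577), so the fall rests on 1 probe.

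**Figure D1:**
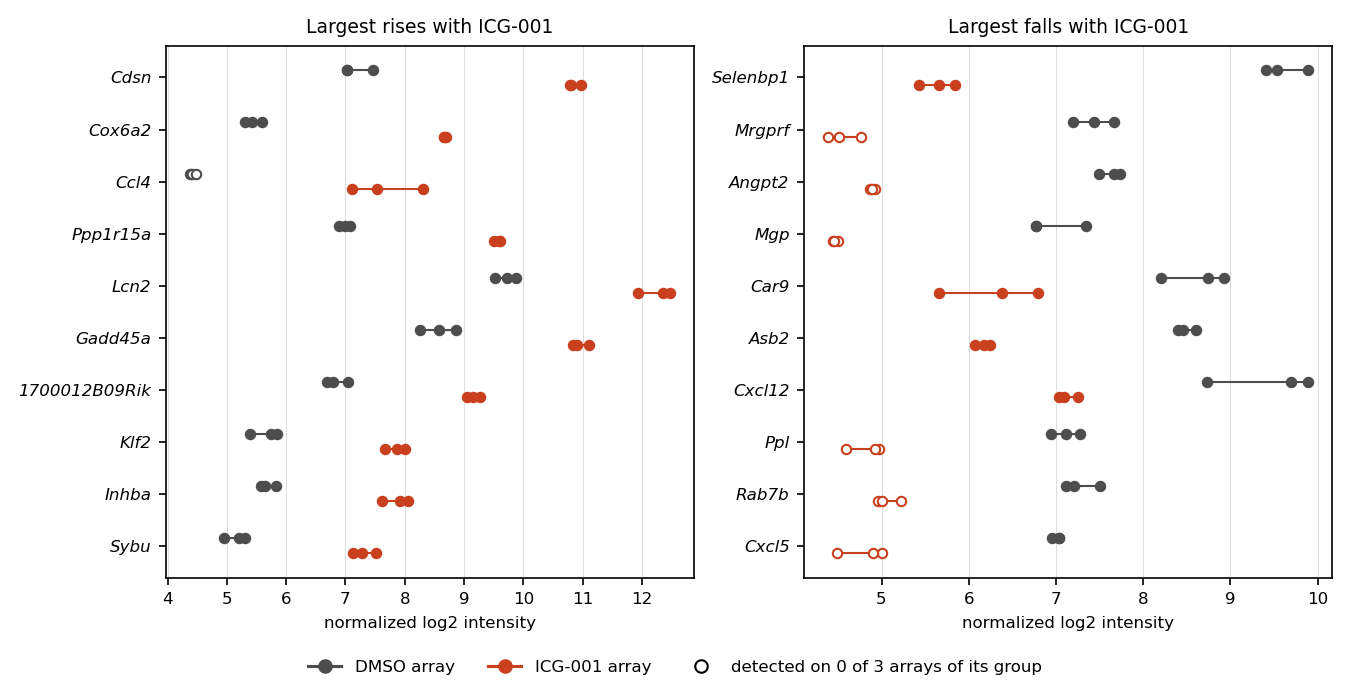
Normalized log2 intensity of the 10 genes with the largest rises (left) and the 10 with the largest falls (right) outside the interferon, mitosis and sterol lists; each point is 1 array, lines join the 3 arrays of a group, and open points mark a group in which no array detected the probe. The ICG-001 arrays of Ccl4 spread from 7.11 to 8.31, while those of Cox6a2 lie between 8.66 and 8.69.

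Of 881 transcription factor genes on the array 369 were measured, and 76 rose (20.6%) and 58 fell (15.7%), with 16 and 10 of them at least 2-fold changed. These shares lie near the 18.7% and 18.9% over all genes. The median difference was 0.03, against -0.005 over all genes. Klf2, which keeps endothelial cells and lymphocytes quiescent, rose most, from 5.39, 5.84 and 5.74 to 8.00, 7.66 and 7.87 (4.56-fold, limma adjusted p = 3.89e-07). It belongs to the Krüppel-like factors, zinc finger proteins that bind GC-rich promoters. Of 9 measured KLF genes 6 rose and 0 fell, with a median difference of 0.56: Klf5 by 1.05, Klf4 by 0.81, Klf6 by 0.78, Klf16 by 0.56 and Klf7 by 0.52 followed Klf2. With median scaling 5 rose. Klf13 (-0.24), Klf9 (-0.05) and Klf3 (-0.01) did not pass.

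Ddit3 encodes CHOP, a transcription factor of stress-induced cell death, and it rose 3.31-fold, from 8.51 ± 0.62 to 10.24 ± 0.09 (limma adjusted p = 6.12e-05). The first DMSO array stood at 9.22, above the other 2 at 8.24 and 8.08, and below all ICG-001 arrays at 10.20, 10.18 and 10.34. Without that array the difference was 2.09. Myc showed the same layout, with DMSO readings of 7.58, 6.78 and 6.70 against 8.04, 8.20 and 8.16. Its difference was 1.12 (limma adjusted p = 0.000419), and 1.40 without the first DMSO array.

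Arid5a, an RNA-stabilising factor of inflammatory transcripts, rose by 1.60, with 1 of 3 DMSO arrays detecting it, and Tsc22d3, the glucocorticoid-induced leucine zipper GILZ, by 1.38. Mycl, a relative of Myc, was detected on no DMSO array and was at least 1.94-fold higher, and Atf3 likewise at least 1.34-fold higher. Tead4, a DNA-binding partner of YAP, rose by 1.36 and the repressor gene Zbtb18 by 1.21, although a second and dimmer Zbtb18 probe read 5.55 and 5.44 and did not pass. Rela, Relb and Nfkb2, the 3 measured genes of NF-κB and Rel factors out of 4 on the array, rose by 0.80, 1.05 and 0.51; they were singled out after their values were seen.

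Dbp, a clock-controlled PAR bZIP factor, had the largest fall among transcription factors. It read 8.28, 8.51 and 8.47 in DMSO against 6.42, 6.58 and 6.48 with ICG-001 (3.81-fold lower, limma adjusted p = 2.43e-07). Tef, of the same PAR bZIP group, fell by 0.64, and Nfil3, which binds the same sites as a repressor, rose by 0.87. Bhlhe40, another clock-linked repressor and a HIF target, fell by 1.41, with the second ICG-001 array at 7.23 and the other 2 at 8.14 and 8.07. Id2, an inhibitor of basic helix-loop-helix factors, fell by 1.72 (7.66 ± 0.18 against 5.94 ± 0.18), and Mxd3, of the Myc/Max network, was at least 2.00-fold lower.

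Homeobox genes outside the HOX clusters went both ways, with 4 of 24 measured genes higher (16.7%) and 6 lower (25%). Meis1 and Meis2, partners of HOX and PBX proteins, fell by 1.11 and 1.01, Irx2 by 0.90, Pitx1 by 0.71 and Msx1 by 0.52, and a second Irx2 probe did not pass. The mesenchymal factors Prrx1 and Zeb2 rose by 1.02 and 0.61. Pparg, the nuclear receptor of fat cell differentiation, was detected on 2 of 3 DMSO arrays and on no ICG-001 array (at least 1.05-fold lower), and the orphan receptor gene Nr2f1 fell by 1.03. Ets2, an effector of RAS signalling, rose by 1.12, while Etv1, of the same ETS family, and the zinc finger gene Zfp41 fell by 1.04 and 1.08. Of the 152 measured ZFP zinc finger genes 31 rose and 20 fell, with 14 and 25 under median scaling, so their majority depends on the normalization.

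**Figure D2:**
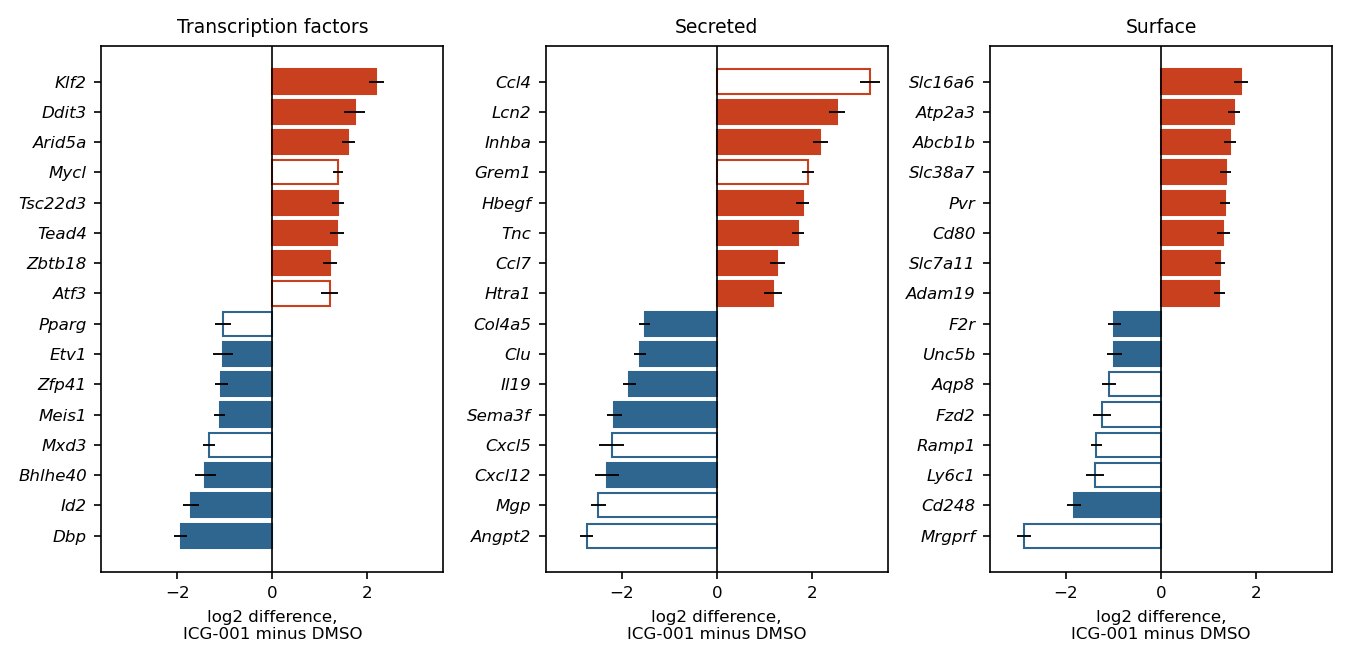
Difference in log2 intensity, ICG-001 minus DMSO, for the 8 largest rises and 8 largest falls among transcription factor, secreted and surface genes; bars show the fitted difference and whiskers its standard error (3 arrays a group). Open bars mark genes that no array of 1 group detected, whose length is no measured fold; among genes detected in both groups Klf2 lies at 2.19, Dbp at -1.93, Lcn2 at 2.54, Cxcl12 at -2.31, Slc16a6 at 1.68 and Cd248 at -1.83.

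Of 707 genes on the array for secreted proteins 153 were measured, and 44 rose (28.8%) and 39 fell (25.5%). At least 2-fold changes numbered 13 higher and 14 lower, and 537 genes of the class were detected on none of the 6 arrays. Of 10 measured chemokines out of 38 on the array 5 rose and 4 fell, and 3 of the 10 were undetected in 1 group. Ccl4 passed the detection filter only through the ICG-001 arrays, so its call is partly fixed by that filter and the count is not read as a family result. The chemokine gene Pf4, not counted in the list, was detected on the DMSO arrays only (at least 1.12-fold lower). Besides Ccl4, the interferon-inducible Cxcl10 and Ccl5 rose by 3.12 and 2.08, the monocyte attractant Ccl7 by 1.28 and the neutrophil attractant Cxcl1 by 0.64. Cxcl12, the ligand of Cxcr4 that holds progenitor cells in their niche, fell from 8.73, 9.89 and 9.70 to 7.25, 7.09 and 7.04 (4.96-fold, limma adjusted p = 1.22e-05). Its first DMSO array stood below the other 2, and without it the difference was -2.68. The neutrophil attractant Cxcl5 was at least 3.20-fold lower (7.01 ± 0.04 against 4.80 ± 0.27), the membrane-bound Cx3cl1 fell by 0.88, and Ccl9, detected on no ICG-001 array, was at least 1.68-fold lower.

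Among interleukins and colony stimulating factors 6 of 14 measured genes rose and 2 fell. The median difference was 0.32, or 0.2 with 3 genes at their bound. Il23a and Tslp passed the detection filter only through the group where they are high. Their calls are partly fixed by that filter, and the count is not read as a family result. Csf1, the macrophage growth factor, rose by 0.88, Il34, which binds the same receptor, by 0.75, and the IL-6 family cytokines Il11 and Lif by 0.89 and 0.77. Csf3 rose by 0.59, and Il23a, detected on no DMSO array, was at least 1.37-fold higher. Il19, of the IL-10 family, fell by 1.84 (8.29 ± 0.22 against 6.45 ± 0.09), and Tslp, detected on no ICG-001 array, was at least 1.18-fold lower. Il24, next to Il19 in the genome, did not pass. The macrophage and leukocyte markers were largely at background: 19 of 23 on the array were detected on none of the 6 arrays, Ptprc, Itgam and Adgre1 among them. The 4 measured (Cd14, Cd74, Lyz1, Lyz2) summed to 369 to 438 on the DMSO arrays and 514 to 558 on the ICG-001 arrays on the linear scale. Cd14 rose by 0.59, and Cd74, detected on no DMSO array, was at least 1.29-fold higher. Their part in the chemokine and cytokine differences was not tested. In such bulk samples fewer cells of a type and less RNA per cell cannot be told apart.

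Antagonists of BMP, TGF-β and Wnt ligands, secreted proteins that hold these ligands inactive, were called in all 8 measured cases out of 29 on the array, 6 higher and 2 lower. Grem1, a BMP antagonist, was detected on no DMSO array (4.67, 4.82 and 4.84) and read 6.75, 6.50 and 6.87 with ICG-001, at least 2.76-fold higher (limma adjusted p = 2.24e-07). Htra1, a secreted protease that inhibits TGF-β signalling, rose by 1.19; DMSO array 1 stood at 11.63, above the other 2 at 10.91 and 10.95 (1.42 without array 1). Nbl1, of the DAN family of BMP antagonists, rose by 1.04, the latent TGF-β-binding protein genes Ltbp1 and Ltbp4 by 0.95 and 0.88, and the activin antagonist gene Fst by 0.49. A second Ltbp4 probe read 5.51 and 5.60 and did not pass. Twsg1 and Ltbp3 fell by 0.72 and 0.64. Inhba, whose product forms activin A, the ligand that Fst binds, rose from 5.64, 5.83 and 5.58 to 8.05, 7.62 and 7.92 (4.55-fold, limma adjusted p = 3.99e-07). On the receiving side 4 of 9 measured TGF-β and BMP receptor genes fell and 2 rose. Those that fell included the coreceptor gene Tgfbr3 (-0.94), the BMP receptor gene Bmpr1a (-0.62) and Eng, detected on no ICG-001 array. Eng passed the detection filter only through the DMSO arrays, so its call is partly fixed by that filter.

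Collagen genes fell: 6 of 9 measured out of 37 on the array were lower and 0 higher, with a median difference of -1.13 (-0.56 with Col1a1 at its bound), and the count was the same under median scaling. Collagen IV forms the network of basement membranes, and its chains Col4a5, Col4a1 and Col4a2 fell by 1.52, 1.29 and 1.13. Col4a1 read 9.65, 9.44 and 9.38 in DMSO and 8.35, 8.16 and 8.06 with ICG-001 (limma adjusted p = 3.12e-06), and Col4a2 read 8.50, 8.76 and 8.60 against 7.54, 7.59 and 7.33 (limma adjusted p = 1.93e-05). Neither gene's groups overlapped. Col6a1 fell by 1.41 and Col16a1 by 0.41, and Col1a1, detected on no ICG-001 array, was at least 1.47-fold lower. Col1a1 passed the detection filter only through the DMSO arrays, so its place in the count is partly fixed by that filter. Col5a1 (-0.19), Col18a1 (-0.08) and Col7a1 (-0.04) did not pass.

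Col4a1 and Col4a2 are transcribed away from each other on mouse chromosome 8, and their promoter windows (RefSeq, GRCm38.p6, 250 bases before to 50 after the start of each gene) are shown because the pair fell together and shares this sequence. Capitals mark the 78 bases that lie in both windows, each read 5′ to 3′ on the strand of its gene. The Col4a1 window is chr8:11312777-11313076 on the minus strand and the Col4a2 window chr8:11312555-11312854 on the plus strand.
Col4a1: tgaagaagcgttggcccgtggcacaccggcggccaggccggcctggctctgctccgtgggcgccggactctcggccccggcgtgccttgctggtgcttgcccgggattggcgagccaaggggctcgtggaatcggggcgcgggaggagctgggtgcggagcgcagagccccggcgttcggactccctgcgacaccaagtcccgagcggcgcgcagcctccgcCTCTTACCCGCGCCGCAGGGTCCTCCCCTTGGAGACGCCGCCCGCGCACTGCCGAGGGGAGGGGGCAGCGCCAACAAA
Col4a2: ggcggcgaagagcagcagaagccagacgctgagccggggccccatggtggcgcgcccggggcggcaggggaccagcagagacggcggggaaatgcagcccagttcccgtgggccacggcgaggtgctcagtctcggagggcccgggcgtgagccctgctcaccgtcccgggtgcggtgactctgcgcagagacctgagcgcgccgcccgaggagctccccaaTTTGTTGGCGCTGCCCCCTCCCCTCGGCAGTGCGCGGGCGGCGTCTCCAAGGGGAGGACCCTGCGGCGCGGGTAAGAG

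Other matrix genes went both ways. Tnc, the wound and stroma protein tenascin C, rose by 1.71 (5.02 ± 0.13 against 6.73 ± 0.07, detected on 1 of 3 DMSO arrays), while Sparc and Fbln2 fell by 0.58 and 0.70. Hbegf, an EGF receptor ligand, was 3.50-fold higher (6.94 ± 0.23 against 8.75 ± 0.10), and Clu, the extracellular chaperone clusterin, was 3.05-fold lower. Sema3f, a repellent guidance ligand, fell by 2.16, with all 3 ICG-001 arrays between 6.08 and 6.14 and the DMSO arrays between 8.09 and 8.44. Slit2, another guidance ligand, rose by 1.16 and was detected on 1 of 3 DMSO arrays. Of 9 measured fibroblast markers 4 fell, the collagens Col1a1 and Col6a1 among them, and 1 rose, Prrx1 by 1.02. Their median difference was -0.19, against -1.13 for the collagens. Of the 21 on the array 12 were detected on none of the 6 arrays, Col1a2, Col3a1, Dcn and Lum among them. The summed linear level of the 9 was 4707 to 4864 in DMSO and 3573 to 3877 with ICG-001. The part of these markers in the collagen differences was not tested.

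Of 2519 genes on the array for surface proteins 352 were measured, and 89 rose (25.3%) and 62 fell (17.6%). This majority was not checked under median scaling. Of 87 measured solute carriers outside the mitochondrial Slc25 group 30 rose and 8 fell, and with 21 and 9 under median scaling. Slc16a6, a monocarboxylate carrier gene, rose from 6.84, 6.59 and 6.83 to 8.58, 8.41 and 8.31 (3.20-fold, limma adjusted p = 1.39e-06). Slc38a7, a lysosomal glutamine carrier, rose by 1.36, the cystine/glutamate antiporter gene Slc7a11 by 1.24, the zinc and iron carrier gene Slc39a14 by 1.20 and the folate carrier gene Slc19a1 by 1.15. Abcb1b, a P-glycoprotein that pumps drugs out of cells, rose by 1.45 (8.94 ± 0.12 against 10.39 ± 0.07, limma adjusted p = 1.59e-06). Atp2a3, a calcium pump of the endoplasmic reticulum counted here with the ion pumps, rose by 1.54.

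Of 19 measured CD antigens 6 rose and 6 fell (31.6% each), and of 12 TNF receptor genes 4 rose (33.3%) and 1 fell (8.33%). Among the CD antigens that rose, Cd74 and Cd274 passed the detection filter only through the ICG-001 arrays, so their calls are partly fixed by it. Pvr, a ligand of NK-cell receptors, rose by 1.35 and the T-cell costimulator gene Cd80 by 1.31 (6.57, 6.27 and 6.49 against 7.53, 7.89 and 7.84). The death receptor gene Fas rose by 1.20, and with it the TNF receptor family genes Tnfrsf21 by 1.05 and Tnfrsf12a by 0.99. Ngfr, of the same family, was detected on no ICG-001 array (at least 1.09-fold lower), and its call was lost in 5 of the alternative settings. It passed the detection filter only through the DMSO arrays, so the 1 fall in the TNF receptor count is partly fixed by that filter. Adam19, a sheddase of growth factors, rose by 1.23.

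Ly6c1, a GPI-anchored protein, was at least 1.73-fold lower and the water channel gene Aqp8 at least 1.56-fold lower; no ICG-001 array detected either. Cd248, the stromal and pericyte marker endosialin, was 3.56-fold lower (6.84, 7.37 and 7.44 against 5.31, 5.35 and 5.50) and was detected on 2 of 3 ICG-001 arrays. Ramp1, which makes the receptor for the neuropeptide CGRP, was at least 1.48-fold lower, and the Wnt receptor gene Fzd2 at least 1.67-fold lower (5.69, 6.50 and 6.01 against 4.91, 4.65 and 4.93). F2r, the thrombin receptor, and Unc5b, a netrin receptor, fell by 0.98 each, and the heparan sulfate carriers Sdc3 and Sdc1 by 0.90 and 0.73. Sdc3 and Sdc1 were each detected on 1 of 3 ICG-001 arrays. Of the 5 measured syndecans and glypicans 3 fell and 1 rose, Gpc1 by 0.30, a call lost in 8 of the alternative settings. Of 5 measured endothelial markers 4 were lower and 1 higher. Plvap (-1.50) and Nos3 (-0.94) fell, and Flt1 rose by 0.56. Tie1 and Eng were detected on no ICG-001 array and were at least 1.11-fold and 1.17-fold lower. Both passed the detection filter only through the DMSO arrays, so their calls are partly fixed by that filter. The count is therefore not read as a result of the list. The median difference was -0.89, or -0.23 with these 2 genes at their bound. Of the 18 on the array 13 were detected on none of the 6 arrays, among them Pecam1, Cdh5, Kdr and Vwf, and the summed linear level of the 5 was 457 to 542 in DMSO and 258 to 311 with ICG-001. Their part in the falls of Angpt2, Cd248 and collagen IV was not tested.

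Hypoxia-inducible factors bind ACGTG motifs when oxygen is low and switch on glycolysis, pH control and their own hydroxylases. Of 31 measured hypoxia and HIF target genes out of 43 on the array 20 were lower with ICG-001 and 1 higher, with a median difference of -0.67, and 8 were at least 2-fold lower. After Car9, the mitophagy receptor gene Bnip3l had the largest fall, from 11.59, 11.68 and 11.48 to 10.18, 10.01 and 10.14 (2.77-fold, limma adjusted p = 1.38e-06). The prolyl hydroxylase genes Egln3 and Egln1 fell by 1.34 and 1.14. Egln3 read 11.92, 12.01 and 11.96 in DMSO and 10.66, 10.48 and 10.73 with ICG-001, and the groups of both genes were apart.

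Glycolytic enzymes made up much of the list. Pgam1 fell by 1.26, the phosphofructokinase genes Pfkl and Pfkp by 1.09 and 0.66, Pkm by 0.85, Aldoa by 0.75, Tpi1 by 0.75, Hk1 by 0.46 and Ldha by 0.41. A second and dim Pfkl probe (5.59 and 5.50) did not pass. Pdk1, which diverts pyruvate from the mitochondrion, fell by 1.41, from 7.55, 8.62 and 8.44 to 7.18, 6.81 and 6.39, so its lowest DMSO array lay close to the highest ICG-001 array. Hk2 was the exception and rose by 0.46. Not all standard targets moved: Vegfa (9.52 ± 0.22 against 9.49 ± 0.08), the glucose carrier gene Slc2a1 (11.71 ± 0.13 against 11.81 ± 0.15) and Pgk1 (-0.02) did not pass.

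The promoters of the 3 members that passed with the largest falls among those that hold the motif are shown. Capitals mark ACGTG or its reverse complement CACGT, searched on both strands, and the motif is contained in the E-box CACGTG. The windows are Car9 chr4:43506776-43507075 on the plus strand, Egln3 chr12:54203825-54204124 on the minus strand and Pgam1 chr19:41911621-41911920 on the plus strand (RefSeq, GRCm38.p6).
Car9: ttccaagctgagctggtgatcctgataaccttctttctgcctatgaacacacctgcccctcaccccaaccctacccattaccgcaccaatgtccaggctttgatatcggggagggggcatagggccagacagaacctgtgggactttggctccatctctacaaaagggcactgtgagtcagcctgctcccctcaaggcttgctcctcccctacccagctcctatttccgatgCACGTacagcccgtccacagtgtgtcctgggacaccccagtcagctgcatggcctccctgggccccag
Egln3: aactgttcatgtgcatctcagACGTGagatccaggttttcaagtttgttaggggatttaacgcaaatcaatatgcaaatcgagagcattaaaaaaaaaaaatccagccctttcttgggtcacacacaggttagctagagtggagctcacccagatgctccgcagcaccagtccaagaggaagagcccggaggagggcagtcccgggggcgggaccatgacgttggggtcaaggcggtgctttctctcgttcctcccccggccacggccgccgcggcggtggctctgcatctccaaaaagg
Pgam1: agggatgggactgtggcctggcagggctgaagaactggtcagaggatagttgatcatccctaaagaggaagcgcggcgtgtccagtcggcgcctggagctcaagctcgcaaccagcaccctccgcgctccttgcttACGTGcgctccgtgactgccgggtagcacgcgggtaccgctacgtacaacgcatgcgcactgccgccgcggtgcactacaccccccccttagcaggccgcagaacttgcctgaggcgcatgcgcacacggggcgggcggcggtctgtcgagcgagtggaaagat

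The match begins at base -18 from the start of Car9, at -229 in Egln3 and at -114 in Pgam1. Of the 26 listed genes with a promoter window 18 held the motif (69.2%), against 31.3% of all tested genes and 19.6% of all 32851 windows of this length. The list was made of known targets, so a high share can come from that choice and is not read as an effect of ICG-001. Of the 18 members with the motif 10 were lower, and of the 8 without it all 8 were lower. The part of the motif in these falls was not tested.

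ATF4 is the transcription factor of the integrated stress response. With C/EBP partners it drives amino acid uptake and synthesis, and it induces Ddit3, Trib3 and Ppp1r15a, which feed back on the response. Of 39 measured ATF4 targets out of 46 on the array 18 rose and 1 fell (median difference 0.32, or 0.28 with 2 genes at their bound), with 14 and 1 under median scaling. Besides Ppp1r15a and Ddit3, the mitochondrial folate enzyme gene Aldh1l2 rose from 9.79, 9.76 and 9.87 to 11.22, 11.50 and 11.34 (2.92-fold, limma adjusted p = 6.39e-07). Slc7a11 read 9.94, 9.74 and 9.91 against 11.13, 11.12 and 11.07, and the cysteine-forming enzyme gene Cth rose by 1.04. The stress regulators Nupr1, Sesn2, Trib3 and Chac1 rose by 0.84, 0.74, 0.73 and 0.63.

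Several amino acid synthesis genes of the list did not pass. Asns, the asparagine synthetase and a standard readout of the response, read 12.84 ± 0.20 in DMSO and 12.58 ± 0.26 with ICG-001 (limma adjusted p = 0.177). Psat1 (0.02), Mthfd2 (0.12) and Atf4 itself (-0.18) did not pass either, and Phgdh, the first enzyme of serine synthesis, fell by 0.60. Among the amino acid carriers of the list Slc3a2 (0.72), Slc6a9 (0.47), Slc1a4 (0.41) and Slc7a5 (0.32) rose, Slc1a5 was at least 1.21-fold higher with no DMSO array detecting it, while Slc38a2 (-0.08) did not pass.

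The C/EBP-ATF motif, TGATGNAA on either strand, was found in the promoter windows of 14 of the 32 ATF4 targets that have one (43.8%), against 2.75% of all tested genes and 3.97% of all windows. As with the hypoxia list, the genes were listed as known targets, so this share is not read as an effect of ICG-001. Of the 14 with the motif 8 rose, and of the 18 without it 5 rose. The 3 that passed with the largest rises are shown with the match in capitals. They are Slc7a11 at chr3:50443564-50443863, Atf3 at chr1:191183284-191183583 and Nupr1 at chr7:126625421-126625720, all on the minus strand (RefSeq, GRCm38.p6).
Slc7a11: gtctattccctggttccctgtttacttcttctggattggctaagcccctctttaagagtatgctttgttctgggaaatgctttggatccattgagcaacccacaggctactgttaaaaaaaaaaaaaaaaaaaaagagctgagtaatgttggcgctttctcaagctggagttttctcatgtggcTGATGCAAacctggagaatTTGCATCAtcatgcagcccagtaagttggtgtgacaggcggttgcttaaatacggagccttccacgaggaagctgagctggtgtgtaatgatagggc
Atf3: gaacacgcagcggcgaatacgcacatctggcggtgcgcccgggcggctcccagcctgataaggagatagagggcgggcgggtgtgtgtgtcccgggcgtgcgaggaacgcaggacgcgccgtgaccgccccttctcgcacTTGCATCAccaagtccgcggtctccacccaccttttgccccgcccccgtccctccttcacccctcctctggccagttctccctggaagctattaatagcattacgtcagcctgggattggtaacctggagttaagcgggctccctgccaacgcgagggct
Nupr1: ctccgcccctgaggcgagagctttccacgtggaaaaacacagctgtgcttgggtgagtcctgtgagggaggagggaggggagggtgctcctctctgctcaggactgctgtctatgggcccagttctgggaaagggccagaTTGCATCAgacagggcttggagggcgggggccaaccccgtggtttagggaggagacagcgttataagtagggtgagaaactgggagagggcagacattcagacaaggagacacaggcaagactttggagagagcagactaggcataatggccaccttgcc

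Slc7a11 holds the motif at -66 and, on the opposite strand, at -47 from its start, and Atf3 and Nupr1 each hold it at -110 on the opposite strand. Shares of other motifs, searched on both strands, are given for the genes at least 2-fold changed as a description. The AP-1 motif TGANTCA was in 15.7% of the promoters of genes at least 2-fold higher and 10.5% of those at least 2-fold lower, against 6.45% of all tested genes. With the interferon list left out, the share in the higher genes was 12.7%. The CRE, TGACGTCA, was in 5.71% and 1.32%, against 3.78%. The TCF/LEF motif CTTTGAT was in 0.714% and 5.92%, against 2.98%, where 0.714% is 1 of 140 promoters. Among the others searched, the hypoxia motif was in 27.1% and 27.0%, against 31.3%. The κB motif GGGNNNTCC was in 31.4% and 26.3%, against 26.8%, and the E-box CACGTG in 12.9% and 6.58%, against 12.4%.

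**Figure D3:**
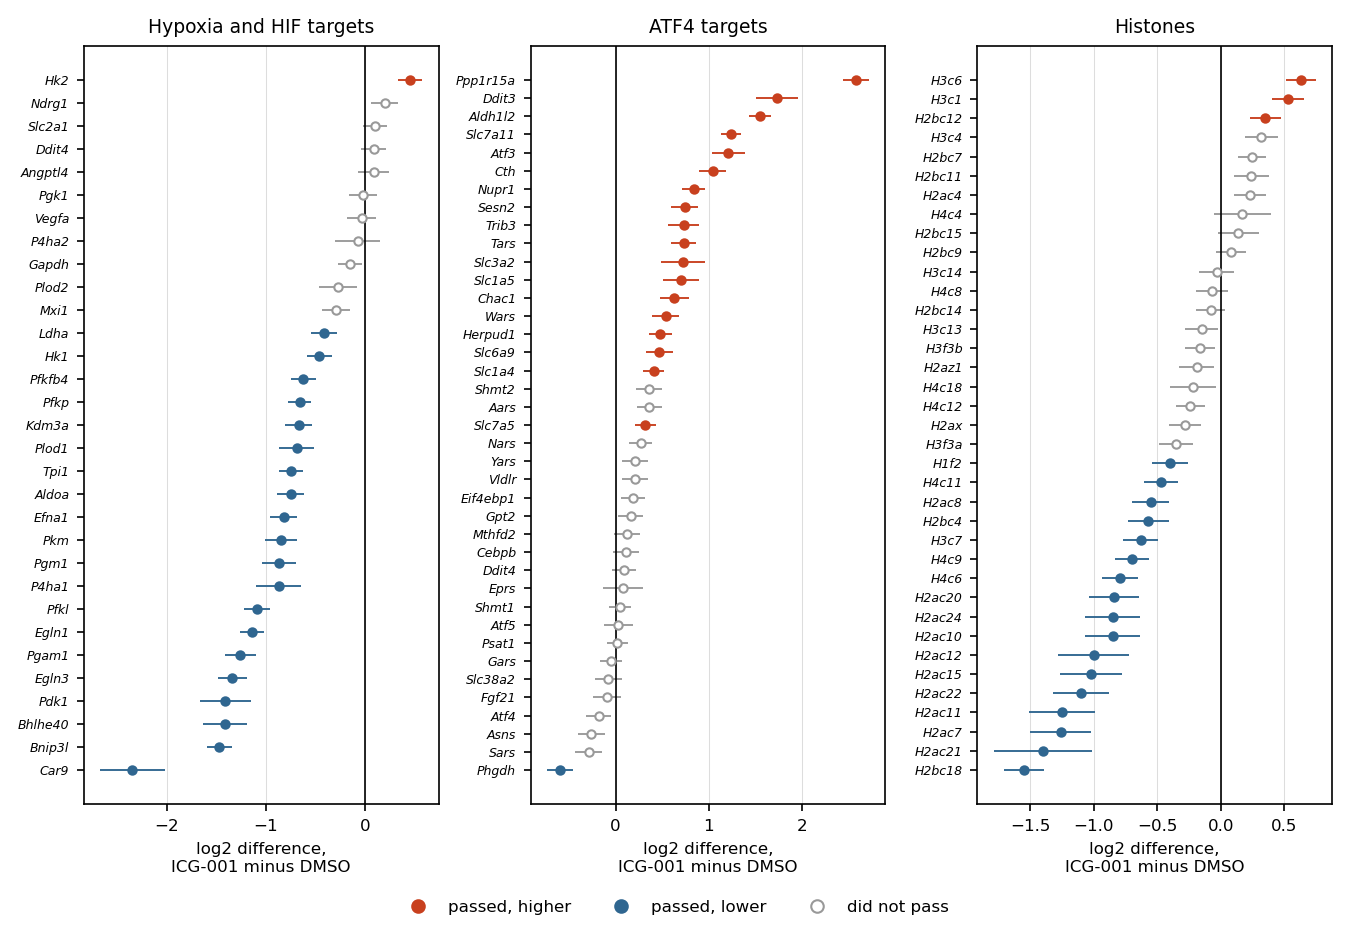
Difference in log2 intensity, ICG-001 minus DMSO, for each measured member of the hypoxia, ATF4 and histone lists; points are fitted differences, whiskers standard errors, and open grey points did not pass. In the hypoxia list Car9 lies at -2.35 and Hk2 at 0.46, in the ATF4 list Ppp1r15a at 2.58 and Phgdh at -0.60, and in the histone list H2bc18 at -1.55 and H3c6 at 0.63.

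Of 36 measured p53 target genes 17 rose and 4 fell. Gadd45a and the kinase gene Plk2 were the largest rises; Plk2 read 8.41, 8.52 and 8.67 against 10.26, 10.46 and 10.30 (3.49-fold, limma adjusted p = 2.24e-07). Ccng1, a cyclin-like p53 target, rose by 1.09, the pro-apoptotic gene Bbc3 by 1.02, Mdm2, the ubiquitin ligase of p53, by 0.60 and the cell cycle inhibitor gene Cdkn1a by 0.54. A second Ccng1 probe read 10.66 and 11.02 and did not pass. Ccng2, a relative of Ccng1 induced by FOXO factors, fell by 1.19, from 8.58, 8.63 and 8.62 to 7.50, 7.32 and 7.43, and Sesn1 fell by 0.87.

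Immediate-early genes, which respond to growth factors and stress without new protein synthesis, rose in 12 of 22 measured cases and fell in 1. Besides Plk2, Klf2, Myc and Atf3 these were Junb (0.93), Klf4 (0.81), Klf6 (0.78), the kinase genes Sgk1 (0.77) and Plk3 (0.75), the mRNA decay factor Zfp36 (0.68), Jun (0.59) and Csrnp1 (0.51), while Zfp36l1 fell by 0.38. Egr1 (0.33), Fosl1 (0.27), Dusp1 (0.28) and Dusp6 (0.08) did not pass. NF-κB target and inflammatory genes outside the chemokines and interleukins rose in 12 of 30 cases and fell in 3, with 8 and 4 under median scaling. Traf1 rose by 1.71 (7.29 ± 0.18 against 9.00 ± 0.14) and the prostaglandin synthase gene Ptgs2 by 1.41, detected on 1 of 3 DMSO arrays. Icam1 (0.18) and Sod2 (-0.15) did not pass, and Saa3 fell by 0.65.

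NRF2 targets split. Of 37 measured 15 fell and 7 rose. Those that fell included the NADPH-forming enzymes Idh1 (10.30, 10.33 and 10.51 against 8.47, 8.74 and 8.75, limma adjusted p = 4.79e-07), Tkt (-1.24) and Me1 (-0.45), and the quinone reductase gene Nqo1 (-0.69). Those that rose included Slc7a11, the autophagy receptor gene Sqstm1 (1.26), the heme oxygenase gene Hmox1 (1.09) and Srxn1 (0.63). Glutathione S-transferases fell in 8 of 14 measured cases and rose in 2. The microsomal Mgst3 and Mgst1 fell by 1.50 and 1.41, Gstm1 by 1.30, Gstm2 by 1.11 and Gstt1 by 1.10, while the alpha-class Gsta2 and Gsta1 rose by 0.98 and 0.72 and Gsta4 fell by 0.78. Genes within the mu and alpha classes are alike in sequence, and their probes may read each other's transcripts.

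Of 9 measured aldehyde dehydrogenases, a family whose activity is used to sort stem cells, 3 rose and 3 fell (33.3% each). Aldh3a1 fell from 14.21, 14.30 and 14.16 to 13.22, 13.21 and 12.98, and Aldh3b1 was 4.24-fold lower (8.94 ± 0.05 against 6.86 ± 0.05, limma adjusted p = 2.32e-08). Of 14 measured stem and progenitor markers out of 35 on the array 5 rose, Cd44 (0.54) and Klf4 among them, and 2 fell. Sox2 (5.98 ± 0.10 against 6.00 ± 0.24) and Sox9 did not pass. Of 5 measured acinar markers Aqp5, a salivary water channel gene, and Etv1 fell by 0.72 and 1.04, Slc12a2 rose by 0.38, and Xbp1 (0.25) and Ano1 (0.02) did not pass. Of 4 measured ductal markers Wfdc2 fell by 0.94 and the other 3 did not pass. In the same lists 17 of 22 acinar and 18 of 23 ductal markers were detected on none of the 6 arrays, Amy1, Krt7 and Krt19 among them.

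Enzymes that act on fatty acyl-CoA fell in 17 of 38 measured cases and rose in 8. The desaturase gene Scd2 was detected on no ICG-001 array (at least 2.79-fold lower), Scd1 fell by 1.37, the elongase gene Elovl6 by 1.60 (8.46, 8.94 and 9.31 against 7.25, 7.28 and 7.36), Fads2 by 1.22 and the medium-chain dehydrogenase gene Acadm by 0.99. These are genes of both synthesis and oxidation, and several are known SREBP targets outside the sterol list. Fads3, Acot2 and Acsbg1 rose by 1.07, 1.07 and 1.09, though a dimmer Acot2 probe did not pass (0.26). Of enzymes that build glycerolipids, Gpat3 rose by 1.80 (7.24 ± 0.16 against 9.04 ± 0.13), Dgat1 and Dgat2 by 0.68 and 0.67, and Lpin1 was at least 2.10-fold lower.

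DNA replication genes fell in 27 of 48 measured cases and rose in 2, with a median difference of -0.42 (-0.40 with 1 gene at its bound). Lig1, the replicative DNA ligase, read 10.75, 10.59 and 10.66 against 9.33, 9.38 and 9.37 (2.48-fold, limma adjusted p = 2.19e-06). A second and dim Lig1 probe (5.57 and 5.32) did not pass. Thymidine kinase Tk1 and ribonucleotide reductase Rrm1 fell by 1.23 and 1.10, and the helicase subunits Mcm4, Mcm6, Mcm5, Mcm3 and Mcm2 by 1.02, 0.97, 0.87, 0.64 and 0.58. Orc5 rose by 0.80 and Pole3 by 0.36, while Rrm2 (-0.18) and Fen1 (-0.27) did not pass.

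Histone genes, whose transcripts are made in S phase and mostly lack a poly(A) tail, fell in 17 of 37 measured cases and rose in 3. H2bc18 was 2.94-fold lower (7.75, 7.82 and 7.69 against 6.17, 6.03 and 6.40, limma adjusted p = 5.98e-06). H2ac7 fell by 1.26 (13.31, 13.00 and 12.71 against 11.74, 11.34 and 12.15). H2ac21 fell by 1.40, with DMSO arrays of 10.65, 9.48 and 8.87 that lay further apart than the ICG-001 arrays at 8.18, 8.08 and 8.55. H3c6, H3c1 and H2bc12 rose by 0.63, 0.53 and 0.35. The H2A genes are nearly identical, so their counts are not independent measurements.

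Wnt pathway genes gave a mixed picture. Of 15 measured Wnt/β-catenin targets out of 38 on the array 5 rose and 4 fell, and 22 were detected on none of the 6 arrays; Axin2 and Lef1 could not be compared. Ctnnb1, the gene of β-catenin, read 11.98 ± 0.10 in DMSO and 11.88 ± 0.29 with ICG-001, and Ep300, the gene of p300, 8.71 ± 0.11 and 8.72 ± 0.17; neither passed. No probe in use was named for Crebbp. Myc and Cd44 rose, Id2 fell, and the TCF factor gene Tcf7l2 fell by 0.64 (6.06, 6.26 and 6.28 against 5.50, 5.68 and 5.50, limma adjusted p = 0.0011). Birc5, the survivin gene, fell by 0.35 (limma adjusted p = 0.0225), a call lost without DMSO array 2 and without ICG-001 array 1 or 3. Ccnd1 (difference 0.34, limma adjusted p = 0.0881) and Sox9 (-0.23) did not pass. Of 30 measured pathway components 9 fell and 5 rose.

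**Figure D4:**
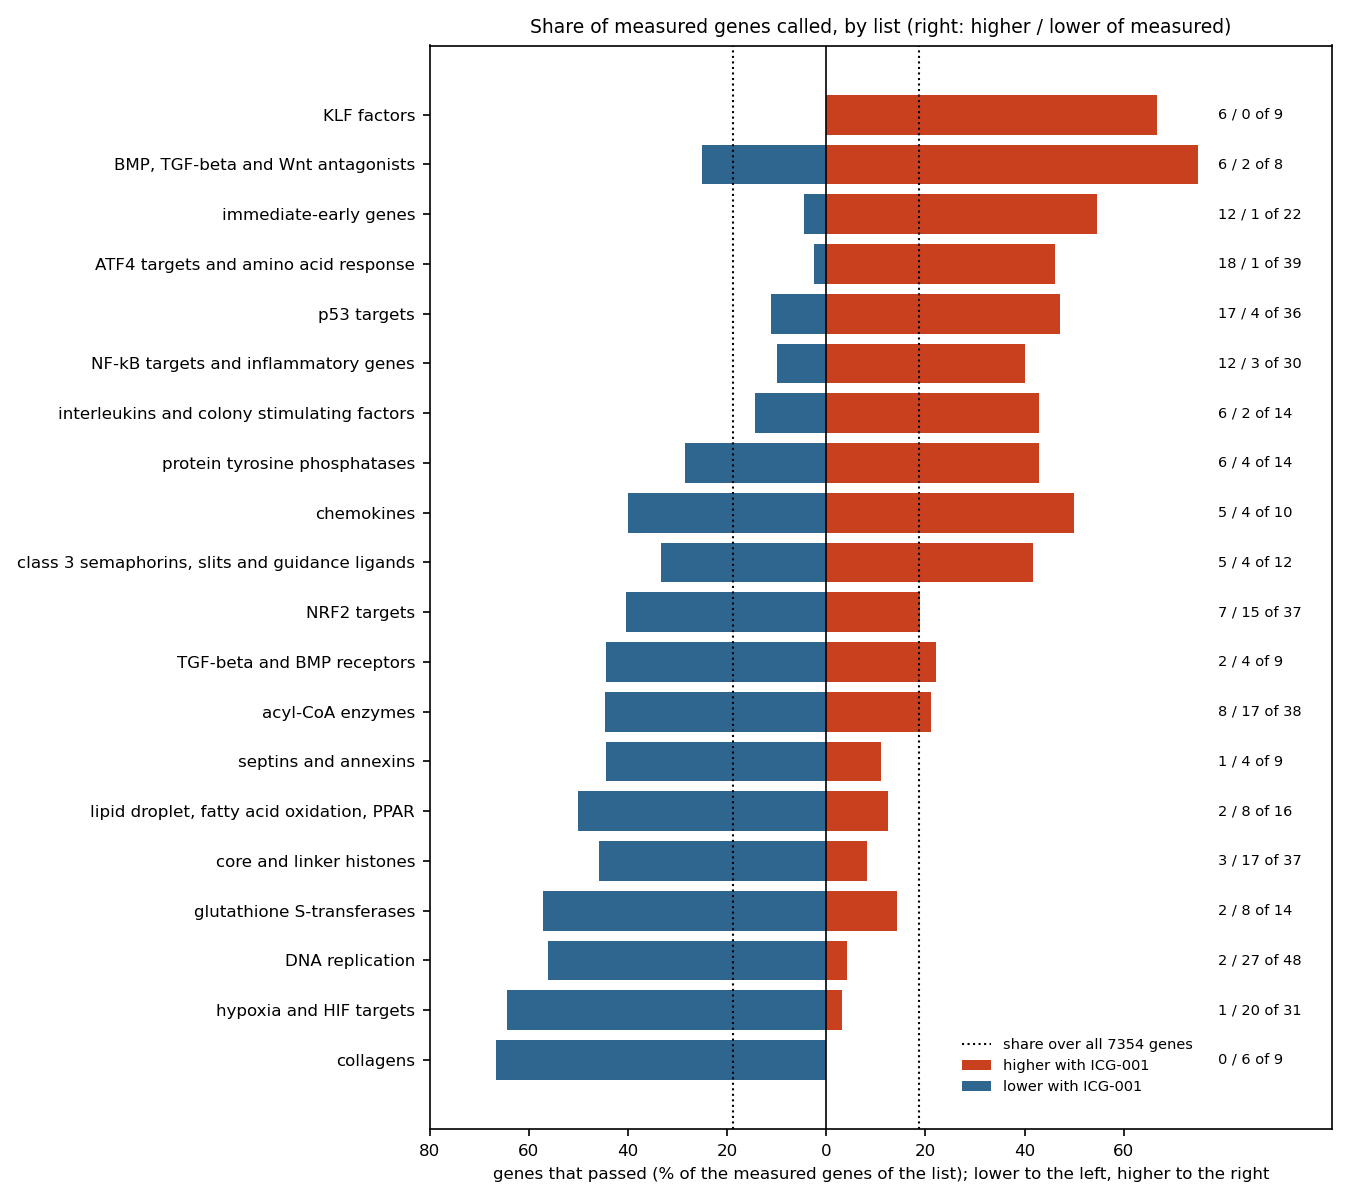
Share of the measured genes of a list called higher (right, red) or lower (left, blue) with ICG-001, for lists with at least 8 measured genes and 40% called in one direction; dotted lines give the shares over all genes tested, 18.7% higher and 18.9% lower, and the numbers at the right are genes higher and lower of those measured. Of the KLF factors 6 of 9 were called higher and 0 lower, and of the collagens 0 of 9 higher and 6 lower.

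A set of 53 genes (0.721%) was detected on all ICG-001 arrays and on no DMSO array, and 104 (1.41%) on all DMSO arrays and on no ICG-001 array. Both sets were chosen for being detected on one side only, so that they differ is fixed by the choice and no count of passed genes is read from them. Levels in the detected group were 5.43 to 7.92 for the 53 genes, with bounds of 1.14-fold to 6.43-fold (median 1.46), and 5.32 to 7.63 for the 104. Most of these genes are dim, and the sets came to 14 and 33 when a detection p under 0.05 counted as detected. Of the 53 genes 12 were still undetected in DMSO at that limit, Ccl4, Grem1, Atf3, Cd74, Avil and Vgf among them, and of the 104 genes 26 were undetected with ICG-001, Mrgprf, Mgp, Gamt, Mgat3, Ly6c1 and Col1a1 among them; those named were singled out after their values were seen. Without the first DMSO array 94 genes in place of 53 were detected with ICG-001 only.

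Outside the interferon list, which holds 7 of the 53, Csprs stood at 5.09, 5.09 and 4.96 in DMSO and 7.36, 6.89 and 6.64 with ICG-001 (at least 3.31-fold higher, limma adjusted p = 3.56e-06). Csprs was detected on 1 LF3 array and passed the detection filter only through the ICG-001 arrays, so this p-value is partly fixed by that filter. Tcam1 was at least 2.89-fold higher, with ICG-001 arrays at 6.76, 6.77 and 6.79. Stab1, a scavenger receptor gene of macrophages and sinusoidal endothelium, was at least 2.50-fold higher, the inflammatory caspase gene Casp4 at least 2.30-fold and the creatine kinase gene Ckb at least 1.88-fold. Sema4a, a semaphorin read by T cells, and Polr3d, a subunit of RNA polymerase III, were at least 1.75-fold and 1.71-fold higher. Tcam1 and Grem1 were detected on all LF3 arrays too, and Ccl4 and Ckb on none.

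Of the genes detected in DMSO only, Angpt2, Mrgprf, Rab7b, Ppl, Cxcl5, Mgp and Scd2 were described above. Gamt, which makes creatine, stood at 6.43, 6.74 and 6.68 in DMSO and 4.49, 4.58 and 4.73 with ICG-001, at least 2.44-fold lower (limma adjusted p = 4.84e-07). Hspa12b, an HSP70 relative known from endothelium, was at least 2.21-fold lower and the IGF-binding protein relative Kazald1 at least 2.16-fold lower. Of these 10 genes 7 were detected on all 3 LF3 arrays and the other 3 on 2 of them. For 4 of the 104 genes (Ppl, Mlx, Hnrnpa3 and Elf3) another probe was detected with ICG-001.

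**Figure D5:**
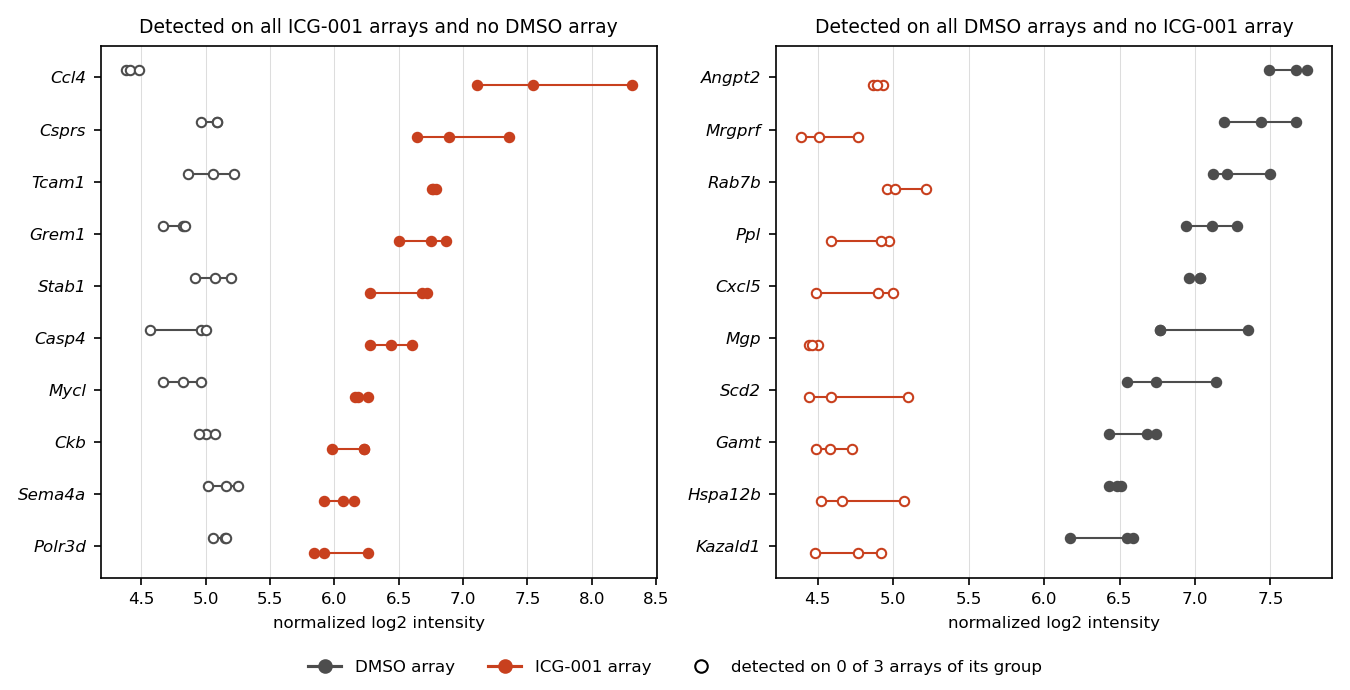
Normalized log2 intensity per array of 10 genes a side, taken by their mean intensity, detected on all arrays of 1 group and on none of the other, outside the interferon, mitosis and sterol lists; open points mark the group without detection. The readings without detection lie between 4.38 and 5.25, near background, and give only an upper limit for the level.

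Signalling enzymes changed in both directions. Map2k6, a kinase that activates p38, read 6.04, 6.33 and 6.17 in DMSO and was detected on no ICG-001 array (4.76, 4.53 and 4.64, at least 1.80-fold lower, limma adjusted p = 7.34e-07). Dusp8, a phosphatase that switches off JNK and p38, rose from 5.53, 5.36 and 5.44 to 7.05, 6.86 and 6.98 (limma adjusted p = 4.84e-07). Of 15 measured dual-specificity phosphatases 4 rose (26.7%) and 3 fell (20%), and of 14 protein tyrosine phosphatases 6 rose (42.9%) and 4 fell (28.6%). Ptpn6, or SHP-1, a phosphatase that dampens immune receptors, fell by 1.20, and Ptpn14, a partner of YAP, rose by 1.10. Of the growth factors for vessels besides Angpt2, Vegfb and Pgf fell by 0.75 and 0.62, and Pdgfa rose by 1.04.

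Further families are given as counts, to be set against 18.7% higher and 18.9% lower over all genes. Cytosolic ribosomal protein genes were called in 9 of 56 cases, 3 higher and 6 lower, with Rpl27a (-1.74) and Rpl13a (-1.36) far from the family's median of 0.00; ribosomal proteins have many processed copies in the genome, and these 2 probes are uncertain. Respiratory chain subunits rose in 13 of 85 cases and fell in 15. In the same family as Cox6a2, its partner muscle form Cox7a1 was detected on no ICG-001 array (at least 1.62-fold lower). Mitochondrial ribosomal proteins rose in 10 of 68 cases and fell in 13, proteasome subunits in 3 and 5 of 36, integrins in 4 and 2 of 12, and DnaJ cochaperones in 6 and 6 of 24. RBM and hnRNP proteins, with the SR splicing factors, fell in 19 of 55 cases and rose in 7, Srsf3 by 1.01 and Rbm15 in the other direction by 1.20. Rab GTPases fell in 11 of 43 cases and rose in 4, Rab3a and Rab17 falling by 1.31 each.

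Against LF3, ICG-001 differed in 2923 genes (39.7%); this comparison shares the ICG-001 arrays with the one against DMSO, so the values are set side by side. Lcn2 was higher by 2.50 than with LF3 (limma adjusted p = 3.48e-07), Klf2 by 1.87 and Abcb1b by 1.51. Selenbp1 was lower by 2.79 (limma adjusted p = 4.51e-07) and Dbp by 2.53. Ccl4 and Arid5a were detected on no LF3 array, and Angpt2 and Rab7b on all 3 LF3 arrays but no ICG-001 array. For Cox6a2 the difference from LF3 was 0.11 (limma adjusted p = 0.611), for Inhba 0.30 (0.146) and for Gadd45a 0.27 (0.275), and these did not pass. Ddit3 and Gsta2 were lower with ICG-001 than with LF3, by 1.24 and 0.91, although both were higher than with DMSO.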

How the data were processed

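RNA of 9 samples (3 each with DMSO, ICG-001 and LF3) was measured on Illumina mouse bead arrays of 25697 probes. The deposited table holds each probe's intensity and detection p-value, not normalized, per the file headers, exported with GenomeStudio 2010.1, per the submitters' processing notes. Here neqc (limma 3.58.1, R 4.3.3) corrected background with the detection p, added an offset of 16, took log2 and quantile-normalized all 9 arrays. The offset understates the change of dim genes. Probes with a detection p under 0.01 on at least 3 arrays were kept (10830, 42.1%), and 625 of them without a gene symbol, of which 227 passed, are not named. The brightest probe stood for a gene, which left 7354 genes. The fit covered all 9 arrays, which then share 1 estimate of the spread, with Benjamini-Hochberg adjustment over all kept probes and a threshold of 0.05. All columns of the table were mapped to samples (0 unmapped). The number of arrays limits the precision: the median standard error of a difference was 0.135. The authors' processed intensities, deposited on a linear scale with values down to -17.5 and array medians of 9.3 to 9.4, were an alternative after adding 32 and taking log2. Their deviations from each probe's mean matched those of the same array (r at least 0.998 over 9201 probes, at most 0.794 with any other array), they are not centred by gene, and the steps that made them are not stated in the labels.

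Genes named by rule, outside the interferon, mitosis and sterol lists, were the 10 largest rises and falls without overlap, the 8 largest each way among transcription factor, secreted and surface genes, and the 10 brightest each way detected in 1 group. For a family with at least 5 measured genes and 40% called in one direction, or with several 2-fold changes, the 4 with the lowest p were taken, and a fixed set of Wnt genes was added. Further members of the lists were named after their values were seen. The comparison and all lists were chosen with earlier results of these data known. Cdsn was taken out of the ATF4 list and Selenbp1 out of the hypoxia list after values were seen, because neither belongs there, and the histone list was widened to current gene symbols. The interferon motif among those searched was shortened before shares were counted and is not reported. Promoter windows came from RefSeq (GRCm38.p6), and 6079 of the 7354 genes matched one by symbol.

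On simulated data for this comparison, with 200 of 7354 genes changed, the fit recovered 37.8% of changes of 0.5 log2 units, 87.6% of 1 and 100% of 2, and 3.85% of its calls were false. The simulation drew independent normal noise on already normalized values, without a shift from normalization. It changed far fewer genes than the 2763 called here, so these rates do not carry over to the real arrays. Alternatives covered background correction, offset, scaling, detection filter, probe choice, samples in the fit, variance model, replicate block and leaving out each array.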

Additional observations from a re-analysis of the deposited data

How the results depend on the processing

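Over 19 settings the number of genes past the threshold ran from 2156 to 3510, and no planned setting was left out. Without background correction 228 genes changed at least 2-fold in place of 383, and 230 with an offset of 50. Genes detected on all ICG-001 arrays and no DMSO array numbered 14 in place of 53, and those on all DMSO arrays and no ICG-001 array 33 in place of 104, when a detection p under 0.05 counted as detected. Leaving out 1 array in turn gave 2156 to 2711 genes past the threshold, 364 to 414 at least 2-fold changed, 53 to 94 detected with ICG-001 only (94 without the first DMSO array) and 110 to 152 detected with DMSO only. Fewer arrays in a group leave fewer that must be undetected. Median scaling shifted the median difference to -0.098, with 832 genes higher and 1554 lower (34.9% of calls higher, against 49.7%). The labels do not say whether replicate numbers pair the arrays. Deviations of same-numbered DMSO and ICG-001 arrays correlated at -0.037, -0.011 and -0.108, which does not decide it, since no test was run on so few arrays. With the replicate number as a block 2635 genes passed and 383 were at least 2-fold changed. Of 5195 comparisons of 277 named genes over the settings, 5116 kept call and direction, 69 lost the call, 10 gained it and 0 turned direction; 259 genes kept theirs throughout. The cause of these shifts was not tested. Dim probes near background limit the one-group sets, and the sources used here do not say whether arrays of a group are separate cultures.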
